A study of Mus musculus with 4 samples.

Results

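The steady-state RNA of C2C12 myoblasts and of the myotubes they form was compared here, with 1 total RNA library from proliferating cells (MB) and 1 from differentiated cells (MT). Entries of both quantification tables were joined by gene name and locus, and those with a gene symbol were kept, which gave 24850 named entries of 61630 and 24320 distinct symbols. C2C12 is an established mouse line of skeletal myoblasts that fuse into myotubes in culture. MB were kept in growth medium with fetal bovine serum and carry the label time of -24 h, and MT were kept in differentiation medium with horse serum and carry the label time of 72 h, while a legend in the study's supplement gives a shorter time for its MT RNA-seq. Both libraries were made from rRNA-depleted total RNA, and they are 2 of the 4 libraries of the series.

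When serum is withdrawn, myoblasts leave the cell cycle, switch on myogenin and the MEF2 factors, and fuse into multinucleated fibres. MyoD and Myf5 mark committed myoblasts, Id proteins hold MyoD back from its E-protein partners, and the CDK inhibitor p21 together with the retinoblastoma family closes E2F-driven transcription. The sarcomere, the repeating contractile unit, is then built from thick myosin filaments, thin actin filaments with troponin and tropomyosin, and the Z-disc that anchors them.

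Levels are given as FPKM, a fragment count scaled by transcript length and library size, and changes as the log2 ratio of FPKM + 1 in MT over FPKM + 1 in MB. An entry was called higher or lower when this change reached 0.58 in size, which is about 1.5-fold for abundant RNAs and asks for more at low FPKM. Since each side is 1 library, replicate spread is unknown and the differences are described without a test. Each deposited FPKM carries a 95% interval that covers only the counting and assignment of fragments within its library. In such bulk cultures fewer cells of a kind and less RNA per cell cannot be told apart, and fused and unfused cells of the MT culture are read together.

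The 24850 named entries split into 1942 higher in MT (7.81%), 3407 lower (13.7%) and 19501 between the cutoffs. Among the 11486 whose mean FPKM was 1 or more, 1672 were higher (14.6%) and 3317 lower (28.9%), and these shares are the background for the gene lists below. List counts run over all members found, and in some lists part of them lie below this level. The 2 directions differed in size. Of these entries, 128 were higher by at least 3 on the log2 scale and 41 were lower by at least 3, whereas 877 were higher and 1551 lower by at least 1. The centre of the distribution lay below 0, with a median change of -0.23 over the 10791 entries at 1 FPKM or more on both sides. After subtraction of this median, 2495 of the 11486 entries were higher (21.7%) and 2170 lower (18.9%), so the balance of the 2 directions rests on the scaling. Counts over a gene list are therefore followed, where they differ, by those after subtraction, called centred below. The median moved with gene span and level, from -0.34 in the shortest to -0.06 in the longest of 4 equal groups of protein-coding genes by locus span, and from 0.03 in the lowest to -0.45 in the highest of 4 by mean FPKM. Implied fragments, recovered from the width of the deposited intervals, summed to 58867300 for the named entries in MB and 52526700 in MT. In each direction, 99.6% of the called entries had an interval of the change that excluded 0.

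**Figure D1:**
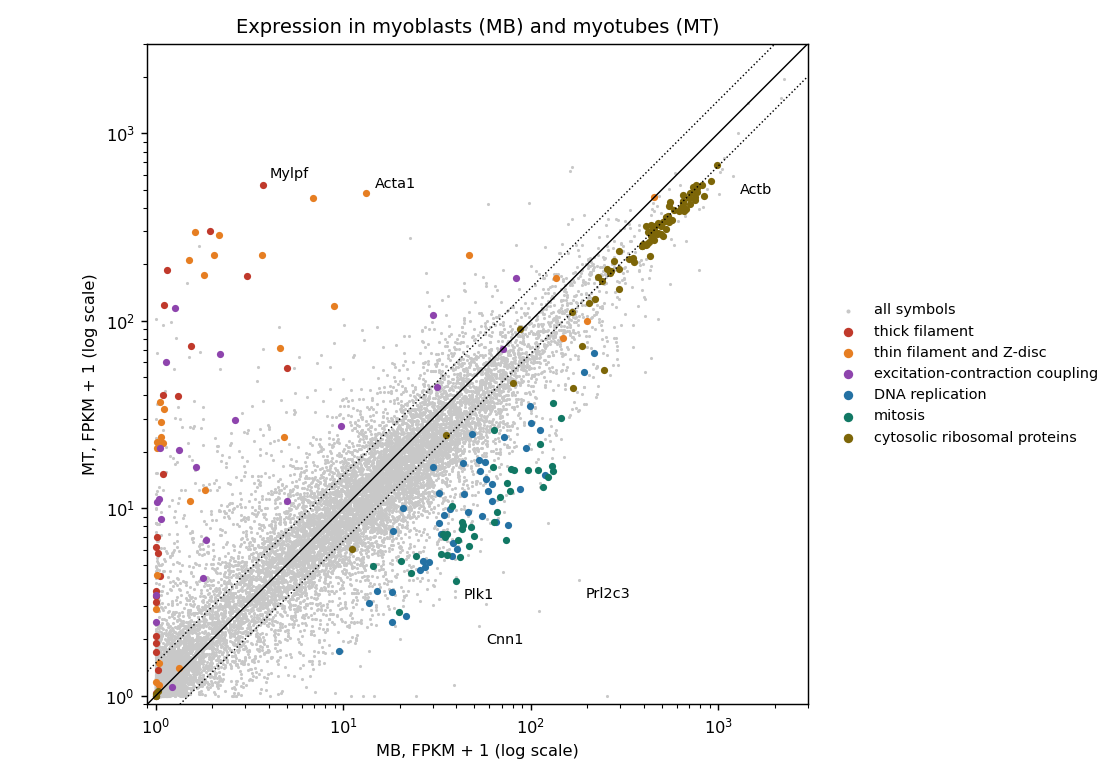
FPKM + 1 of each symbol in MB (horizontal, log scale) and MT (vertical, log scale), with genes of 6 lists in colour. The solid line marks equality and the dotted lines a log2 change of 0.58 either way, and 2 miRNA symbols above 3000 are outside the axes. Filament genes stand along the upper left, replication and mitosis genes form a band below the diagonal, and ribosomal protein genes lie on the lower dotted line.

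The myotube markers set the 2 libraries apart, whereas no myoblast marker was lower in MT by the cutoff. Of 8 myoblast markers all had a mean FPKM over 1 and 6 were higher in MT (7 centred). Among the 6 were the laminin receptor chain Itga7 (49.2 to 176), the M-cadherin gene Cdh15 (45.9 to 110.1) and desmin (Des, 98.7 to 195). All 8 myotube markers were higher in MT, with a median change of 6.77. The 8 endothelial markers summed to 0.0717 FPKM in MB and 0.263 in MT, with 4 of them at 0 in a library (Cldn5, Tie1, Kdr and Emcn). The 7 immune markers summed to 1.35 and 1.27, with Cd3e at 0 in both. The 8 neuronal and glial markers summed to 57.3 and 14.9, most of it the tubulin gene Tubb3 (56.4 to 11.4), and Map2 read 0.689 to 3.09. The 8 epithelial markers summed to 16.7 and 2.44, most of it the keratin gene Krt14 (16.5 to 1.91), with Krt5 at 0 in both. The bone and cartilage markers summed to 16.3 and 11.1, mainly Runx2 (10.3 to 6.11) and Sox9 (5.46 to 3.86), and the cardiac markers to 7.69 and 7.27, mainly Gata4 (5.1 to 2.8) and, in MT, Tnni3 (0.145 to 2.54). Of the 8 adipocyte markers Adipoq, Cidec, Plin1 and Lep were at 0 in both libraries, while Cebpa read 4.65 to 12.1 and Pparg 14.8 to 3.94. Fibroblast markers were mixed, with Ly6a at 54.3 to 169, Cd34 at 44.9 to 29.9 and Dpt at 0 to 3.62, Thy1 at 0.00766 to 0.0438 and Tcf21 at 0 in both. They summed to 101 in MB and 207 in MT. The part of these cell-type markers in the other results was not tested.

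Myogenin showed the widest separation among the 24 myogenic and E-box factors listed. Myog (chr1:136186581-136189125 in mm9, plus strand), which drives terminal differentiation, had an FPKM of 0.695 in MB (95% interval 0.535 to 0.854) and 251 in MT (95% interval 248 to 254), a log2 change of 7.21. Mef2c rose from 0.0732 to 4 (2.22) and Mef2a from 12.8 to 41.7 (1.63), while Mef2d read 10.5 to 13.5 (0.34). The MEF2 proteins are MADS-box factors that act with the myogenic bHLH proteins. Of the earlier factors, Myod1 was higher in MT (36.6 to 65.9, 0.83), Myf5 differed little (13.8 to 13.6, -0.01), and Myf6 stayed under 1 in both (0.188 to 0.37). Pax7, a marker of satellite cells, read 4.85 to 7.42 (0.53), below the cutoff.

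The partners and antagonists of MyoD were mostly lower. All 3 Id genes fell past the cutoff, Id1 from 78.9 to 27.7 (-1.48), Id2 from 56.9 to 25.7 (-1.11) and Id3 from 211 to 104 (-1.01). The E-protein gene Tcf3 was lower (32.6 to 15.9, -0.99) and its relative Tcf12 was not (37 to 48.2, 0.37). In all, 6 of the 24 factors were higher and 5 lower (25% and 20.8%), or 9 and 4 centred, with a median change of 0.18. Pax7 and Tcf12 are among the centred gains.

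**Figure D2:**
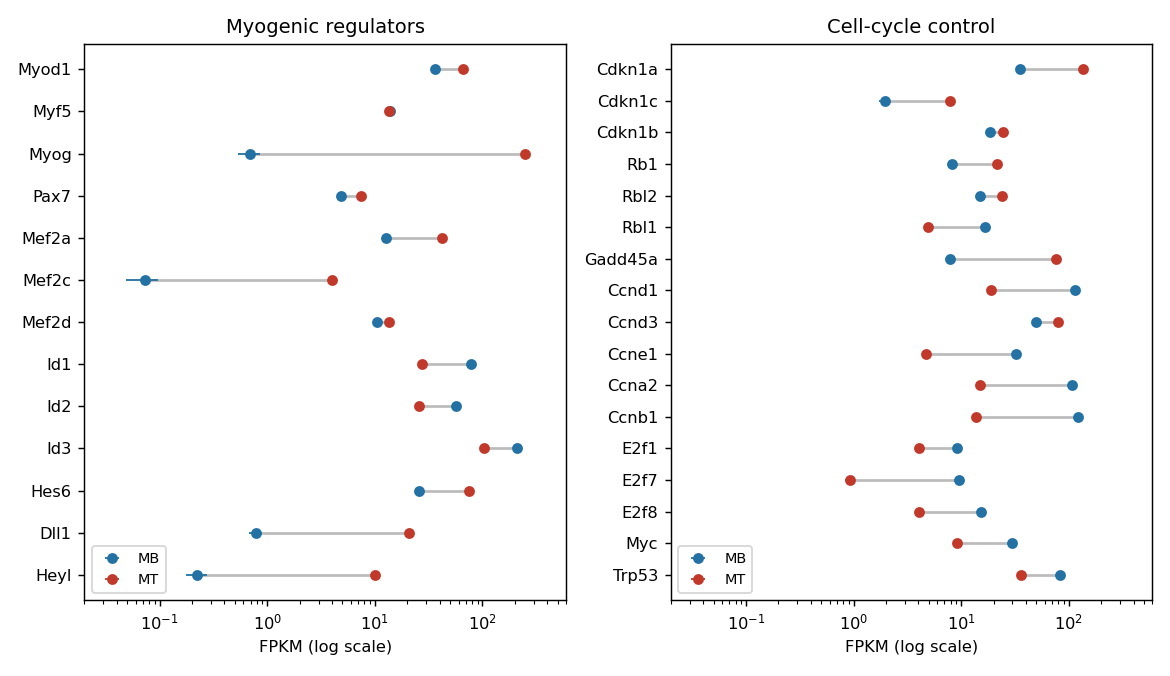
FPKM (log scale) of 13 myogenic and Notch regulators, left, and 17 cell-cycle regulators, right, in MB (blue) and MT (red), with 95% within-library intervals as bars that are mostly narrower than the points. Myog, Mef2c, Dll1 and Heyl lie far to the right in MT, and the cyclins A2, B1, D1 and E1 lie to the left in MT.

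Genes of the thick filament were nearly all higher in MT. Of 22 listed, 20 were higher and none lower (21 and none centred), with a median change of 2.71. The fast regulatory light chain Mylpf (chr7:134355122-134357801) went from 2.72 (95% interval 2.25 to 3.19) to 528 (95% interval 522 to 535). The myosin-binding protein Mybph went from 0.145 to 185 (7.34), the fast essential light chain Myl1 from 0.938 to 302 (7.29) and the embryonic heavy chain Myh3 from 0.101 to 121 (6.79). Embryonic Myh3 was the most abundant sarcomeric heavy chain in MT by FPKM, followed by Myh1 at 38.9, the perinatal Myh8 at 5.24, the slow Myh7 at 4.77, Myh4 at 2.63 and Myh2 at 2.41. These genes are close in sequence, and how the authors' estimate split shared fragments among them is not known. Titin (Ttn), the giant spring of the half-sarcomere, rose from 0.31 to 38.8 (4.93), and the M-band genes Myom2 (0.536 to 72.4) and Myom1 (0.0921 to 14.3) with it. The 2 members between the cutoffs were Myh7b (0.0242 to 0.376) and Myl3 (0 to 0.0311), both under 1 FPKM.

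The thin filament and Z-disc list of 31 genes had 23 higher (24 centred), 2 lower and a median change of 3.97. Tnnt3, the fast troponin T, had the largest change of any list member (0.613 to 295, 7.52). The fast and slow troponin genes were all higher: troponin C from 0.499 to 211 for Tnnc2 and 5.91 to 451 for Tnnc1, troponin I from 0.809 to 175 for Tnni2 and 1.16 to 285 for Tnni1, and the slow troponin T gene Tnnt1 from 2.66 to 224. The fast set (8 myosin and troponin genes) summed to 5.66 FPKM in MB and 1555 in MT, and the slow and cardiac set (9 genes) to 58 and 1364, most of the MB value being the cardiac troponin T gene Tnnt2 (46.1 to 224). Among actins, Acta1 rose from 12.1 to 479 (5.19) and Actc1, the cardiac form, from 1.05 to 223 (6.77). Tropomyosins were the exception: Tpm1 read 451 to 456, Tpm2 136 to 167 and Tpm3 199 to 98.3, and only Tpm3 passed the cutoff, downward (-1.01). Fhl1, a LIM-domain protein, was the other member lower in MT (149 to 79.9). Together the 53 genes of both filament lists held 0.301% of the summed FPKM of 19154 protein-coding symbols in MB and 2.03% in MT.

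Promoter windows of 2 of these genes, Mylpf and Mybph, and of Chrng, an acetylcholine receptor subunit described next, are shown for the myogenic E-box in them, the letters CAGCTG bound by MyoD and myogenin with E proteins. RefSeq windows of 300 bases were read, 250 before to 50 after the transcription start, on build GRCm38.p6. They were picked as examples after the motif search was seen, from genes with large rises. The sequence runs 5′ to 3′ on the strand of the gene, and capitals mark CAGCTG and, in Mybph, the adjoining M-CAT box (CATTCC, the TEAD site, here on the opposite strand).
Mylpf: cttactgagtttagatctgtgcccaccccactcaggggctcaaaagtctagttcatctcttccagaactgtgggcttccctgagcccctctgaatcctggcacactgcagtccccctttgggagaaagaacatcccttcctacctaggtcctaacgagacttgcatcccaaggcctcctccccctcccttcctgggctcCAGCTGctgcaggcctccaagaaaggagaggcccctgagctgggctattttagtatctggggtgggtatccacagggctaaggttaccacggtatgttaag
Mybph: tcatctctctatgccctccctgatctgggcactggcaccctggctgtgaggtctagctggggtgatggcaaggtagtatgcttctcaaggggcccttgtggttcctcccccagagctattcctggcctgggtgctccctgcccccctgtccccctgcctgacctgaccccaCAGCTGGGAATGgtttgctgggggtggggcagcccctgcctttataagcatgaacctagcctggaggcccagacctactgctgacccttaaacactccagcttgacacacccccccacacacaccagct
Chrng: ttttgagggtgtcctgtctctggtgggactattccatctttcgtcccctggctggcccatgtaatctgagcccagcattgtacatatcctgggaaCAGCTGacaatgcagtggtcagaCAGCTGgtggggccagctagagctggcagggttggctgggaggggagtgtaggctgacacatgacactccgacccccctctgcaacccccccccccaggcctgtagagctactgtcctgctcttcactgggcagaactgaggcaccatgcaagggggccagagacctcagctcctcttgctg
The windows lie at chr7:127211358-127211657, chr1:134193198-134193497 and chr1:87205561-87205860 on the plus strand, and each matched the mm9 genome once, at chr7:134354872-134355171, chr1:136089775-136090074 and chr1:89102136-89102435. In Mylpf the E-box starts 51 bases before the transcription start and in Mybph 79, and Chrng holds a pair at 155 and 132 bases.

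Membrane systems for contraction rose beside the filaments. Of 22 excitation-contraction coupling genes 18 were higher (19 centred) and none lower (median 1.85). The sarcoplasmic reticulum calcium store gene Casq2 rose from 0.261 to 115 (6.53), the fast calcium pump Atp2a1 from 0.136 to 59.3 (5.73) and sarcalumenin (Srl) from 1.2 to 65.5 (4.92). The voltage sensor Cacna1s (0.01 to 9.8), its beta subunit Cacnb1 (1.65 to 28.7), the release channel Ryr1 (0.0643 to 7.78) and the adaptor Stac3 (0.637 to 15.5) were all higher in MT. The general pump Atp2a2 read 70 to 69.6, the regulator Sln 0 in both, and the chloride channel Clcn1 0.225 to 0.112. Most of the neuromuscular list was higher too, 9 of 12 (10 centred) with none lower. The fetal acetylcholine receptor subunit Chrng rose from 0.281 to 79.7 (5.98), and the delta, alpha and beta subunits from 2.46 to 46.6 (Chrnd), 43.7 to 144 (Chrna1) and 24.3 to 48.8 (Chrnb1), while the adult subunit Chrne was low in both (0.0253 to 0.0884). Postsynaptic Musk (9.27 to 37.5), Lrp4 (9.62 to 36.1) and rapsyn (Rapsn, 35.4 to 92.6) were higher by 1.36 to 1.91.

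Of 23 adhesion and fusion genes 9 were higher and 4 lower, or 9 and 1 centred. The fusogen genes had the largest changes of that list: Tmem8c (myomaker) went from 0.471 to 157 (6.75) and Gm7325 (myomixer) from 0.204 to 98 (6.36). The lower members were Adam12 (14.9 to 7.19), Kirrel (26.4 to 16.2), Boc (4.4 to 2.45) and Rac1 (123 to 79.9), of which only Adam12 stayed past the cutoff when centred. N-cadherin (Cdh2) read 45.8 to 45.9 and integrin beta 1 (Itgb1) 153 to 141. In the dystrophin-glycoprotein complex 10 of 19 were higher and 2 lower, or 13 and 2 centred. The sarcoglycan gene Sgca (1.93 to 24.6) and dystroglycan (Dag1, 34.2 to 106) rose, Sgcd fell (17 to 9.19), and dystrophin itself was low in MT and listed at 0 in MB (0 to 0.311). A listed 0 in these tables can be a missing estimate, since Hmgcs1, an enzyme of cholesterol synthesis, is also at 0 in both libraries.

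Muscle energy genes divided into those near 0 in MB and those already expressed. Myoglobin (Mb, 0.0896 to 93.8), the muscle creatine kinase Ckm (0.00961 to 66.3) and the muscle subunits of cytochrome c oxidase Cox8b (0.119 to 41) and Cox6a2 (0.0483 to 21.9) rose by 4.45 to 6.44. The muscle glycogen phosphorylase Pygm (0.135 to 20.2) and the mutase Pgam2 (0.372 to 26) rose by 4.23 and 4.3. Aldoa (319 to 341) and Eno3 (303 to 259.5) lay between the cutoffs, Pdk4 (17.9 to 10.1) and Hk2 (13 to 7.7) were lower only before centring, and the insulin-regulated glucose transporter Slc2a4 was low in both (0.168 to 0.242). Of the 25 genes 12 were higher and 2 lower, or 14 and 0 centred.

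The balance of a muscle form and a second form was followed as the share of the muscle form in the FPKM of both. This was done for 34 pairs in which some value reached 1 FPKM. Not every second form is the general form of the same protein. Acta2, set against Actc1, is the smooth-muscle actin, Itpr3, set against Ryr1, is another kind of calcium release channel, and Mef2a, set against Mef2c, is itself a MEF2 factor that rose. Pfkm enters 2 of them, against Pfkl and Pfkp, and the pair Chrng over Chrne sets the fetal against the adult subunit of one receptor. The share was larger in MT in 33 and smaller in 1 (Hk2 over Hk1, 28.1% to 25.9%), and its median went from 0.523% to 45.4%. The way the share moved differed by pair. In 13 pairs the muscle form was higher and the other form lower, in 12 the other form lay between the cutoffs, in 2 both were higher, and in 7 the muscle form did not reach the cutoff. Centred, these counts were 8, 18, 3 and 5. The share moved most for Mylpf over Myl9 (1.34% to 80%), with Myl9 at 201 to 132, lower only before centring. Atp2a1 over Atp2a2 is of the second (0.194% to 46%), and Ckm over Ckb of the third (0.0478% to 50%), since Ckb also rose (20.1 to 66.3). Fabp3 over Fabp5 combined a rise (2.86 to 18.7) with a fall of the other form (149.9 to 17.9), the first kind, from 1.87% to 51.1%. In the actin pair, Acta1 over Actb, the share went from 1.01% to 44.8% while Actb read 1194 to 591. The interval of the share lay wholly above 50% in 12 pairs in MT and in 2 in MB.

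**Figure D3:**
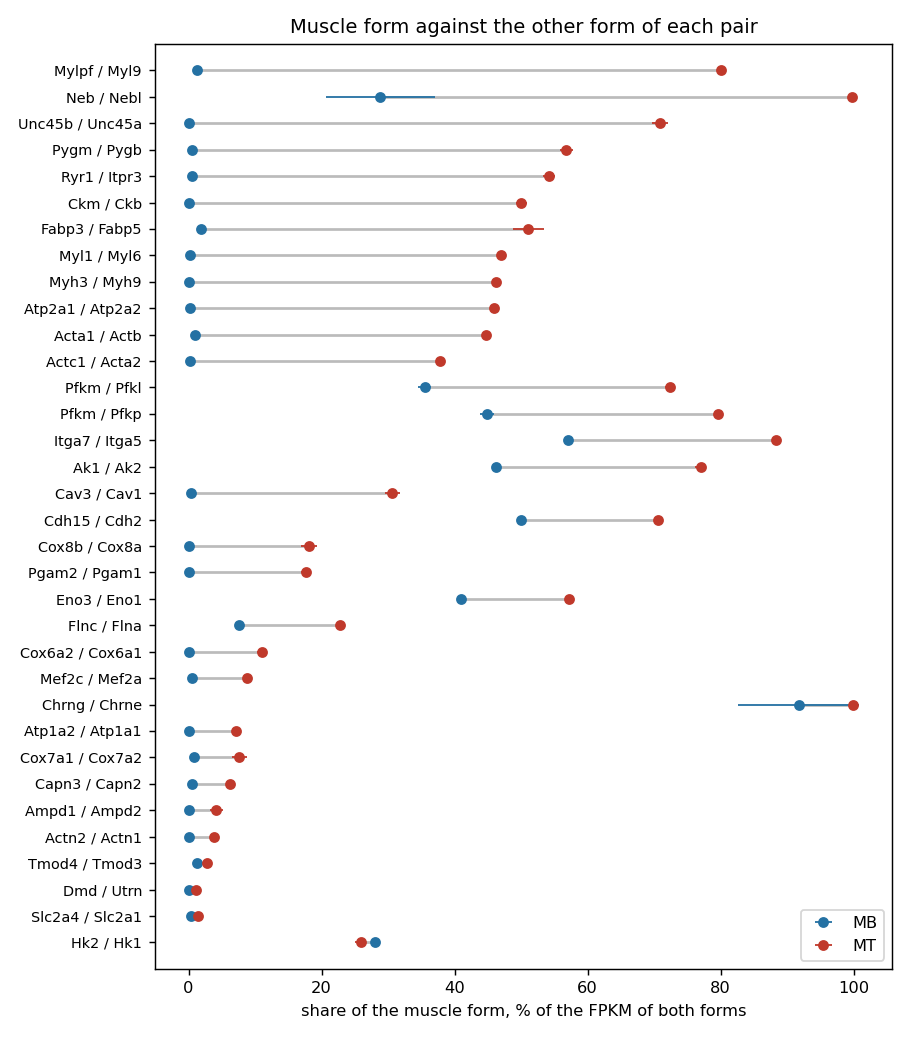
Share of the muscle form in the summed FPKM of each pair, in percent, for MB (blue) and MT (red), with bars for the within-library 95% interval. Pairs are ordered by the difference, from Hk2 over Hk1 at the bottom, the single pair with a smaller share in MT, to Mylpf over Myl9 at the top.

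Proliferation genes were lower throughout. All 44 DNA replication genes were lower in MT (100%, against 28.9% of expressed entries), with a median change of -2.16 and a range of -3.21 to -0.86. The 6 subunits of the MCM2-7 helicase had changes of -3.21 to -2.1, Mcm5 most (74.5 to 7.17), and their FPKM summed to 488 in MB and 86.2 in MT. The loading factors Cdc6 (17.2 to 1.47), Cdt1 (24.8 to 3.69) and Mcm10 (20.5 to 1.65), the nucleotide enzymes Tk1 (118 to 14) and Rrm2 (191 to 52.6), and the clamp Pcna (216 to 66) were all lower. Rfc1 (29.1 to 15.6) and Rpa3 (47.6 to 23.7) fell least. All 39 mitosis and cytokinesis genes were lower as well, with a median of -2.54. The kinases Aurka (72.6 to 5.78, -3.44) and Plk1 (39 to 3.09, -3.29), the anaphase activator Cdc20 (116 to 12) and cyclin B1 (Ccnb1, 123 to 13.7) fell most, and the condensin subunit Smc4 (62.5 to 25.2) least. All of these genes were still above 0 in MT, the lowest being the origin recognition gene Orc1 (8.46 to 0.739).

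The letters of cell-cycle promoters can be read in 3 of these genes, shown because they carry several boxes each. Windows and strand are as above, and capitals mark the CCAAT box of NF-Y (CCAAT, or ATTGG where it lies on the opposite strand), the cell-cycle homology region CHR (TTTGAA, of the DREAM and B-MYB complexes) and the E2F boxes TTTCGCG and TTTGGCG.
Cdk1: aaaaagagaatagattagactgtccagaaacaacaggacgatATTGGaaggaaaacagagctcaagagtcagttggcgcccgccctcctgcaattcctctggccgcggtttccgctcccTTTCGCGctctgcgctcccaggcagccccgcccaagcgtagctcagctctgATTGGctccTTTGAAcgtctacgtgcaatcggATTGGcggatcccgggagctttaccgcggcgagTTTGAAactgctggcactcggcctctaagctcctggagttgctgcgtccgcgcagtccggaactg
Ccnb2: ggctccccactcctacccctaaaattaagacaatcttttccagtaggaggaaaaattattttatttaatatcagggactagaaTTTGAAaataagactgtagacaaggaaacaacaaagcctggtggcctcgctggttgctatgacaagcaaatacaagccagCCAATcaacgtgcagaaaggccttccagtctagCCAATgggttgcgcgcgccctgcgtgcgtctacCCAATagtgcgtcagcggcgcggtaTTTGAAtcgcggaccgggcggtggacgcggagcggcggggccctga
Mcm5: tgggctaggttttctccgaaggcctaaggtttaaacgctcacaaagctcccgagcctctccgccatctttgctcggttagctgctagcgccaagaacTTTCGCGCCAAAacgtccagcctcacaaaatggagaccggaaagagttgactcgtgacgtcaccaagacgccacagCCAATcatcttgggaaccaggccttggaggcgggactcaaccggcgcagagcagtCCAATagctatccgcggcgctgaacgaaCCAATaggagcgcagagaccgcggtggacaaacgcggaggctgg
The windows lie at chr10:69352863-69353162 and chr9:70421505-70421804 on the minus strand and chr8:75109259-75109558 on the plus strand. In mm9 each was found once, at chr10:68815611-68815910, chr9:70269312-70269611 and chr8:77633158-77633457. Cdk1 holds 3 CCAAT boxes, 2 CHR and 1 E2F box, Ccnb2 3 CCAAT and 2 CHR, and Mcm5 3 CCAAT and an E2F box that overlaps the reverse of the TTTGGCG form by 2 bases. Their levels were 77.9 to 15.2 for Cdk1, 73.7 to 12.7 for Ccnb2 and 74.5 to 7.17 for Mcm5.

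Replication-dependent histones, whose mRNAs are made in S phase and end without a poly(A) tail, were read here in total RNA. Of 68 genes 62 were lower and none higher (median -2.12), and the fall was similar for the H1, H2A, H2B, H3 and H4 groups, with medians from -2.35 for H2A to -1.89 for H4. They took 3.99% of the summed protein-coding FPKM in MB and 1.23% in MT. Hist2h2bb was among the 20 most abundant protein-coding symbols of MB (789.7 to 185). Copies of one histone are close in sequence, so values of single copies are uncertain. Other histone genes, replacement variants among them, were split. H3f3a read 230.5 to 280.1 and H1f0 53 to 74.1, both between the cutoffs, H2afz (370.5 to 119) and H2afx (79.5 to 11) were lower, with changes of -1.63 and -2.75, and H3f3b (214 to 125) was lower by -0.77 and between the cutoffs when centred.

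Regulators of the cycle moved in both directions, 8 of 30 higher and 15 lower, or 9 and 13 centred. The CDK inhibitor Cdkn1a (p21) rose from 35.3 (95% interval 34.1 to 36.5) to 135 (95% interval 133 to 137), Cdkn1c (p57) from 1.96 to 7.93 and Gadd45a, a growth-arrest gene, from 7.88 to 75.4. Cdkn1b (p27) read 18.5 to 24.3, below the cutoff. Of the pocket proteins, Rb1 (8.31 to 21.6) and Rbl2 (15.1 to 23.8) were higher and Rbl1 (16.5 to 4.89) was lower. Cyclin D1 (Ccnd1) fell from 113 to 18.8 (-2.53) and cyclin D3 (Ccnd3) rose from 49.5 to 79 (0.66), so by FPKM the order of the pair reversed. The E cyclins Ccne1 (32.5 to 4.67) and Ccne2 (14 to 2.06) and the E2F members E2f1 (9.08 to 4.03), E2f7 (9.6 to 0.928) and E2f8 (15.3 to 4.03) fell, and E2f2 rose (7.2 to 15).

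**Figure D4:**
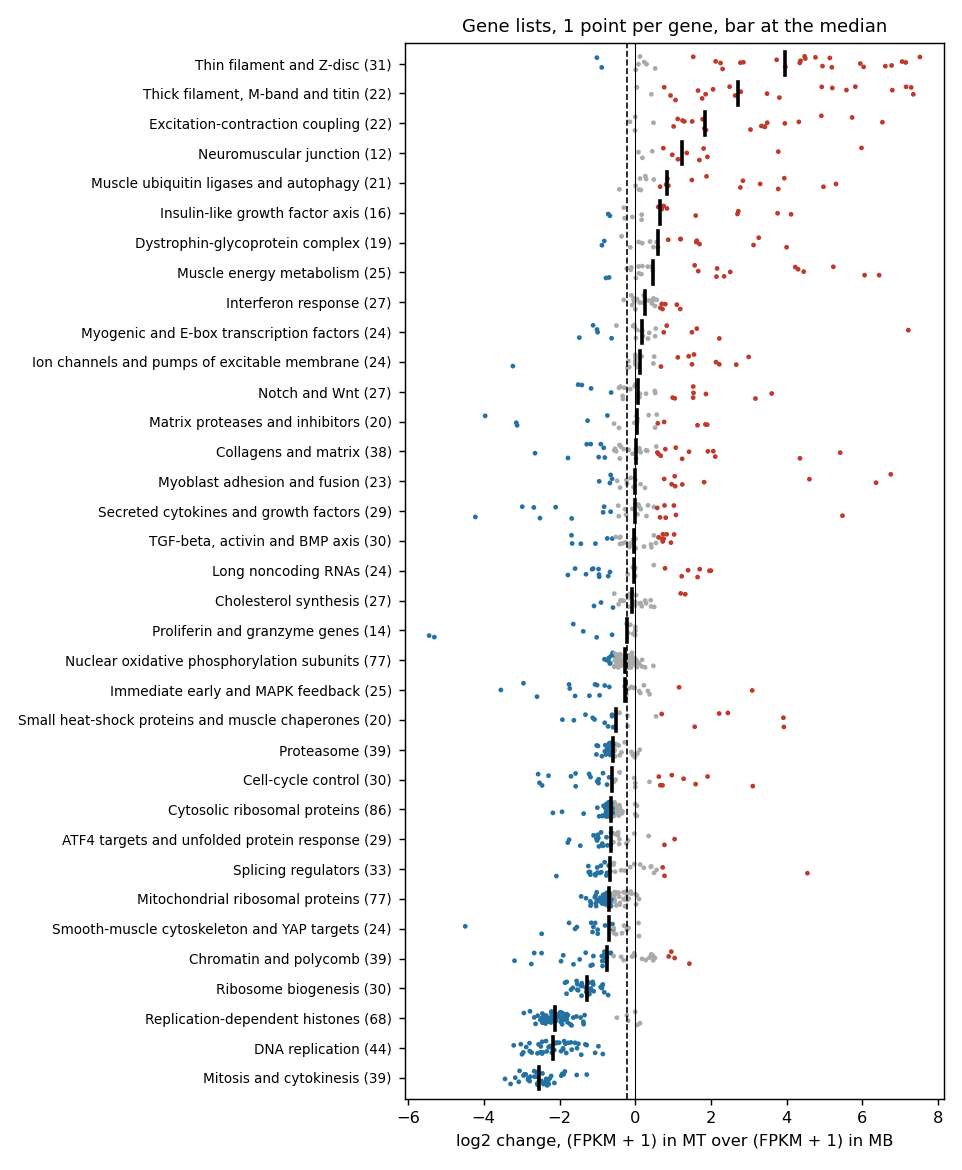
Log2 change of every member of the gene lists, cell-type markers left out, with 1 point a gene and the number of genes in brackets. Points are red at 0.58 or more and blue at -0.58 or less, with a black bar at the median. The dashed line is the median of all entries expressed in both libraries (-0.23). Thin and thick filament lists head the plot, and the mitosis, replication and histone lists, at the foot, have no red point.

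RNAs of growth-factor response genes and of the smooth-muscle cytoskeleton were lower in part. In the immediate early and MAPK feedback list 12 of 25 were lower and 2 higher, or 10 and 3 centred. The AP-1 member Fosl1 fell from 38.3 to 2.36 (-3.55), Etv4 from 29 to 2.88, the phosphatase Dusp5 from 15.4 to 1.71 and Myc from 29.4 to 9.1, whereas Fos (2.05 to 2.58), Jun (35.4 to 34.2) and Egr1 (8.25 to 8.15) lay between the cutoffs and the feedback inhibitor Spry1 rose (1.26 to 18.2). Of 24 smooth-muscle cytoskeleton and YAP target genes 14 were lower (11 centred) and none higher. Calponin Cnn1 fell from 51.9 to 1.35 (-4.49), Actg2 from 225 to 39.8 and Tagln from 239 to 78.6, yet Acta2 read 437 to 367 and Ankrd1 229 to 243. The urokinase receptor Plaur (70 to 3.55, -3.96) fell most in the protease list of 20 genes, in which Mmp2 (42.9 to 158) and Serpine2 (2.46 to 11.9) rose. In that list 5 were higher and 5 lower (25% each), or 8 and 4 centred. Of the 20 genes 15 had a mean FPKM of at least 1. At that level 14.6% of entries were higher and 28.9% lower, and over all named entries 7.81% and 13.7%. Proliferins, secreted hormones related to prolactin, were the lowest of all entries expressed in both: Prl2c3 fell from 179.6 to 3.15 (-5.44) and Prl2c2 from 110.2 to 1.81 (-5.31). The sequences of this pair are close.

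Secreted factors are described by axis. In the insulin-like growth factor list 9 of 16 were higher and 2 lower, or 9 and 0 centred. Igf2 rose from 0.588 to 26.5 (4.12), Igf1 from 0.298 to 16.6 (3.76), the binding protein Igfbp5 from 26.7 to 179 (2.7) and the receptor Igf2r from 7.4 to 24.4, while Igfbp2 (156 to 97.5) and Igfbp6 (79.1 to 47.9) were lower only before centring. Of 29 cytokines and growth factors 7 were higher and 9 lower, or 8 and 8 centred. These shares, 24.1% and 31%, run over all 29 genes, of which 23 had a mean FPKM of at least 1. Of all named entries 7.81% were higher and 13.7% lower, and of those at that level 14.6% and 28.9%. Fgf21 rose most of them (0.245 to 54.3, 5.47), and the EGF-receptor ligands Areg (12.7 to 0.73), Hbegf (19.8 to 2.25) and Ereg (19.8 to 2.63) fell together, with changes of -2.98 to -2.52. Csf1 (158 to 48.5) was lower, as was Ptgs2 (49.2 to 10.7), which encodes an enzyme and not a secreted factor. Ccl8, outside that list, rose from 1.2 to 54.2 (4.65). Of 30 genes of the TGF-beta, activin and BMP axis 8 were higher and 6 lower (26.7% and 20%), or 12 and 4 centred. The inhibitors Smad7 (12.4 to 3.17) and Smad6 (6.53 to 2.64) and the activin subunit Inhba (19.8 to 5.56) were lower, and myostatin (Mstn) was near 0 in both (0 to 0.00913). In the Notch and Wnt list 8 of 27 were higher and 4 lower (29.6% and 14.8%), or 10 and 3 centred. The ligand Dll1 rose from 0.783 to 20.7 (3.6), the target Heyl from 0.224 to 10.1 (3.18) and Hes6 from 25.5 to 75.7, and Jag2 (12.3 to 3.99) and Lfng (14.9 to 4.59) fell.

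Matrix genes changed in both directions, with 12 of 38 collagen and matrix genes higher and 8 lower (31.6% and 21.1%), or 13 and 7 centred. Of this list, decorin (Dcn, 0.503 to 63.1), periostin (Postn, 3.55 to 91.7) and matrix Gla protein (Mgp, 96.9 to 423) rose most. Collagen VI divided, since Col6a1 (27.7 to 119) and Col6a2 (7.2 to 30) rose and Col6a3 fell (40.2 to 17.3). Col1a1 read 14.7 to 15.9 and Col1a2 127 to 131. Tenascin C (Tnc, 73 to 10.8), Col18a1 (33 to 8.92) and nidogen (Nid1, 101 to 41.2) were the largest falls.

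Ribosomal protein, proteasome and oxidative phosphorylation genes lay lower by small amounts, and their counts past the cutoff depend on the scaling. Of 86 cytosolic ribosomal protein genes 56 were lower and none higher (median -0.63), but 8 were lower once the overall median was subtracted (median -0.4). For mitochondrial ribosomal proteins the 2 counts were 50 and 21 of 77 and for the proteasome 20 and 4 of 39, with centred medians of -0.45 and -0.35. For nuclear oxidative phosphorylation subunits they were 9 and 1 of 77 (centred median -0.04), with 1 subunit, Ndufv3, higher after subtraction. The 30 ribosome biogenesis genes did not depend on it in this way. All 30 were lower and 29 remained so after subtraction, with a median of -1.28: nucleophosmin (Npm1) fell from 431 to 185, fibrillarin (Fbl) from 74 to 25 and Nop56 from 151 to 42.4. Of 8 serine and one-carbon enzymes, grouped after their values were seen, all 8 were lower before and after subtraction, led by Shmt2 (99.3 to 28.2) and Phgdh (244 to 72.1).

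Chaperones and ubiquitin ligases of muscle differed from general chaperones. Of 20 chaperone genes 6 were higher and 10 lower, or 7 and 5 centred. Unc45b (0.0142 to 14.4) and Smyd1 (0.23 to 17.5), which fold and modify myosin, and the small heat-shock genes Hspb3 (0.0194 to 4.56) and Hspb7 (0.184 to 4.5) were higher, and Hspd1 (250.2 to 80.7), Hspe1 (235 to 93.8) and Hsph1 (35.9 to 16.5) lower. Of 21 muscle ligase and autophagy genes 13 were higher (14 centred) and none lower. The Kelch adaptors Klhl41 (0.721 to 66.9) and Klhl40 (0.131 to 14.5) and the TRIM ligases Trim72 (0.0783 to 32.8), Trim63 (listed at 0 in MB, 14.3 in MT) and Trim54 (0.616 to 14.9) headed them, Map1lc3a rose from 21.5 to 81.9, and Becn1 (42.6 to 47.4) and Sqstm1 (176 to 192) lay between the cutoffs.

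RNA-binding and chromatin genes moved in both directions. In the splicing list 17 of 33 were lower and 3 higher, or 13 and 7 centred. The repressor Ptbp1 fell from 125 to 28.9 (-2.08), and hnRNP L (Hnrnpl) read 111 to 63 (-0.81). Rbm24, a muscle splicing factor, rose from 0.595 to 36.3 (4.55), Qk from 56.2 to 96.8 and Celf2 from 13.9 to 23.7, and Mbnl1 (102 to 93.1) and Rbfox2 (41.6 to 56) lay between the cutoffs. Of 39 chromatin genes 22 were lower and 4 higher, or 17 and 9 centred. The polycomb methylases moved in opposite directions, Ezh2 going from 24.1 to 8.07 (-1.47) and Ezh1 from 6.62 to 19.6 (1.43), and lamin B1 (Lmnb1) fell from 35.6 to 4.76. Of 24 long noncoding RNAs 7 were higher and 10 lower, or 8 and 8 centred. H19 (165 to 662), Malat1 (161 to 628), Neat1 (14.3 to 48.8) and Xist (24.6 to 66.4) were higher. Of 18 snoRNA host genes 11 were lower and none higher, or 8 and 3 centred, with Snhg5 (73.3 to 20.7) and Gas5 (44.9 to 22.6) lower in both. The RNA subunits of RNase P and RNase MRP, Rpph1 and Rmrp, read 1441 to 1444 and 2236 to 1951.

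The motif content of promoters was compared between the ends of the ranking. The 200 largest rises and the 200 largest falls were taken among symbols whose mean FPKM was 1 or more and that have a RefSeq window. A window was found for 9124 of 11420 such symbols (79.9%), and their 9094 distinct windows are the reference here, with each motif searched on both strands. The myogenic E-box CAGCTG was in 38% of the rises, 14.5% of the falls and 14.7% of the reference. In the same order, the MEF2 box was in 8.5%, 2% and 1.7%, the M-CAT box in 23.5%, 12% and 11.8% and the E-box CACCTG in 22.5%, 8.5% and 15.6%. CHR was in 37.5% of the falls, 12.5% of the rises and 11.9% of the reference. In the order of rises, falls and reference, CCAAT was in 36%, 60% and 39.6% and the E2F box TTTCGCG in 0%, 9.5% and 1.98%. The TATA box TATAAA was more frequent at both ends than in the reference (18%, 14.5% and 7.11%), and the AP-1 site TGANTCA (8.5%, 6% and 4.45%) and the CArG box of SRF (2.5%, 2.5% and 1.39%) differed less. Over all 27025 RefSeq windows of 300 bases, CAGCTG was in 16.1%, the MEF2 box in 3.29%, M-CAT in 14.7%, CHR in 18.2%, CCAAT in 38%, the E2F box in 0.844% and TATAAA in 14.2%. The whole replication and mitosis lists differed from each other. CHR was in 70.6% of 34 mitosis promoters and 13.9% of 36 replication promoters, and the E2F variant TTTGGCG in 0% and 25%. CCAAT was common in both (82.4% and 66.7%). Of 61 promoters of replication-dependent histones, 85.2% held CCAAT, 45.9% CHR, 57.4% TATAAA and 21.3% the E2F box TTTCGCG. Median GC content was 55.7% for the rises and 58% for the falls, both below the 61.3% of the reference, and 52.7% over all windows. These are matches of letters and say nothing of binding.

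**Figure D5:**
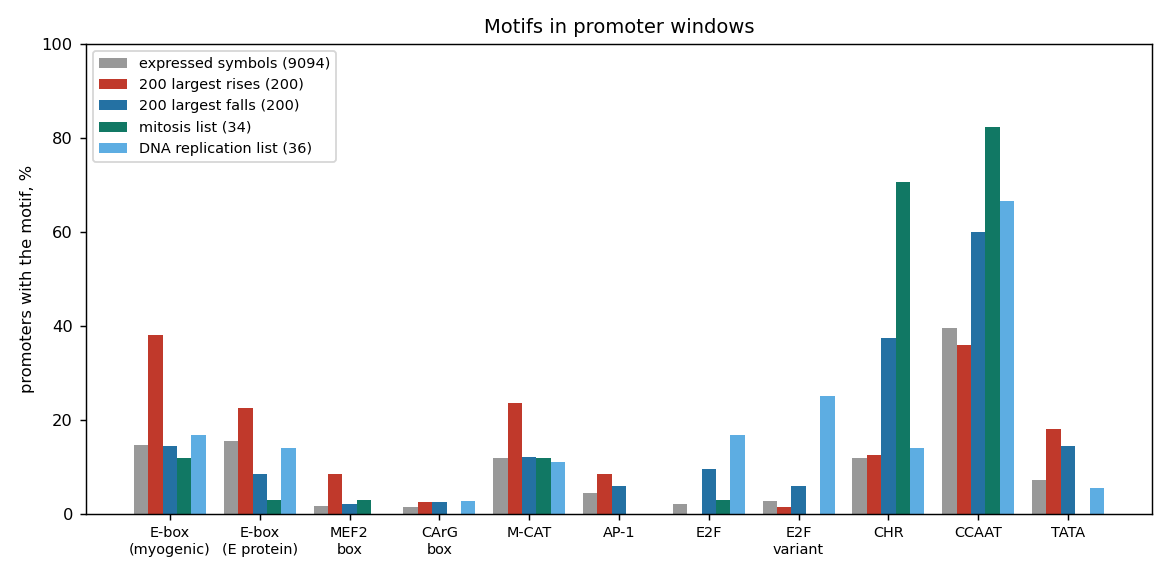
Percent of promoter windows with each motif on either strand, for expressed symbols, the 200 largest rises, the 200 largest falls and the mitosis and DNA replication lists, with the number of windows in brackets. Among these 5 sets the myogenic E-box is commonest in the rises (38%) and CHR and CCAAT in the mitosis list (70.6% and 82.4%).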

How the data were processed

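Total RNA of C2C12 MB and MT (1 library each) was depleted of rRNA and sequenced strand-specifically by the authors, who kept reads of 36 bp or more, aligned them to mm9 with TopHat2 and deposited Cufflinks FPKM values. Every FPKM comes with its 95% interval, its locus and a status flag. The annotation and the strand setting of the estimate are not given in the sources used here. Of the named entries, 9 in MB and 10 in MT had the status FAIL and 374 in each LOWDATA, and all were kept. Entries were joined on name and locus, and starts were read as counted from 0, since 10018 of 20982 entries whose symbol occurs once in GENCODE M1 start 1 base later there (593 start at the same base). For a symbol with several entries (285 symbols) the one with the largest FPKM sum was used. A pseudocount of 1 and a cutoff of 0.58 were applied, the latter being the 1.5-fold limit of the study's methods.

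The interval of a change was built from the upper half-widths of both FPKM intervals, and implied fragments are the square of the FPKM over its standard error, taken as that half-width divided by 2. Named genes are the 15 largest and 15 smallest changes among entries at 1 FPKM or more on both sides, the 10 highest in one library and below 1 in the other, and list members that lead or define their list. Loci under 300 bp were counted and not named. They were 1 of the 10 highest in MT and 9 of the 10 highest in MB, where the remaining entry was Mir5098, with an interval reaching down to 0. A few genes, list members among them, are not reported here. Other genes named were chosen after their values were seen. Members, gene lists, pairs and motifs were chosen with earlier results of these data known, and the subsets of lists (fast and slow forms, MCM, histone groups) after the values were seen. No value of the mitochondrial genome was analysed here. For promoters the most upstream RefSeq window of a symbol was used, and 495 symbols were matched by an older name. The excitation-contraction, filament and ribosomal protein lists had a window for under 80% of their genes, so no share is given for them. Calculations used Python with pandas and numpy and were tested on simulated data. Alternatives were another pseudocount, a minimum level, a cutoff of 1, centring on the median, leaving out short loci and summing entries by symbol.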

Additional observations from a re-analysis of the deposited data

How the results depend on the processing

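The counts of 1942 entries higher and 3407 lower moved by over 1.5 times under some settings. A pseudocount of 0.1 gave 3414 higher and one of 0.01 gave 5066 higher and 5205 lower, centring on the median gave 3060 and 2208, a cutoff of 1 gave 931 and 1571, and a minimum of 1 FPKM on both sides left 1293 higher. The cause of these moves was not tested, beyond fewer entries being counted under a stricter limit. Leaving out short loci, a mean FPKM of at least 1 and summing by symbol kept both counts within 1.5 times. Of 716 list members past the cutoff, 569 kept their call after centring and 147 lost it, and 5 of 45 list medians changed sign, which lay between -0.21 and -0.02 before it. A smaller pseudocount widened the changes of genes near 0 in MB. Of 19 lists with a median of 0.58 or more in size, none changed sign, and 3 medians grew by over 1.5 times with 0.1 and 4 with 0.01. With these values the thick filament median went from 2.71 to 5.49 and 7.1, thin filament from 3.97 to 4.93 and 6.25, so their order turned, and excitation-contraction coupling from 1.85 to 4 and 4.35. Muscle energy, at 0.46, went to 1.71 and 2.7. Summing entries by symbol left the change in share of all 35 pairs tested within its interval. No paired analysis was possible because each condition has 1 library and no test was run. Depth limits the low end, where an FPKM near 0.1 rests on few fragments (49.0 for Myh3 in MB).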

Other observations

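Several families outside the lists moved as blocks. Of 22 protocadherin beta genes 10 were higher in MT (15 centred), against 7.81% of all named entries, and none lower (median 0.5). Of the 22, 12 stayed under 1 FPKM in both libraries. Their highest MB value was 1.45 FPKM, so a mean FPKM of at least 1 was reached mainly through MT. The 9 genes at that level, with a median change of 1.69, are neighbours on chromosome 18 (Pcdhb14 to Pcdhb22). Of 10 Adamts proteases at that level 8 were higher and none lower (median 0.77). Among falls, 17 of 18 nucleoporin genes named Nup were lower (median -1.21, and 14 after subtraction of the overall median). So were 8 of 10 exosome genes (Exosc), 9 of 13 Lsm genes and 6 of 8 augmin genes (Haus, 5 centred). Over all entries with a mean FPKM of at least 1, 14.6% were higher and 28.9% lower. Families were grouped by the letters that open the symbol, with at least 8 members, and those named were chosen after their values were seen.

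Changes of at least 1 in 1 direction ran through 5 or more neighbouring expressed genes at 8 places. The myosin heavy chain cluster on chr11:66891802-67629504 (mm9) held Myh3, Myh2, Myh1, Myh4, Myh8 and Dhrs7c, all higher. On chromosome 13 runs of 14, 5 and 29 histone genes were lower. On chr6:124443131-124586103 the complement proteases C1rl, C1ra, C1s1, C1rb and C1s2 were higher by 1.67 to 4.09. C1s1 went from 0.574 to 25.9, and unlinked to it the complement regulator Serping1 (0.618 to 12.6) rose as well, while C3 read 0.0194 to 0.0162 and C1qa was at 0 in both. Of 19 complement genes 7 were higher (8 centred), against 7.81% of all named entries, and none lower. The floor limits this count, since 12 of the 19 stayed under 1 FPKM in both libraries. The glutathione transferases Gsta4 (113 to 52), Gsta1 (10.1 to 1.06) and Gsta2 (4.85 to 0.694) on chr9:78039773-78291044 were lower.

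A further pair of genes, chosen after their values were seen, were far lower in MT. The neurofilament gene Nefl went from 38.1 to 0.138 and the cell-cycle factor Mybl2 (B-MYB) from 18.9 to 0.995. The secreted selenoprotein gene Sepp1 (2.74 to 70), C1qtnf3 (21.6 to 275) and ceruloplasmin (Cp, 1.87 to 31.3) were among the larger rises. Of the 20 most abundant protein-coding symbols, 14 were shared by both libraries, and Mylpf and Acta1 entered in MT. By chromosome, the median change of expressed entries ranged from -0.28 (chromosome 8) to -0.04 (X).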
